A study of Mus musculus with 9 samples.

Results

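Wnt ligands are secreted, lipid-modified signalling proteins, and the 10 described here are Wnt2b, Wnt4, Wnt5a, Wnt5b, Wnt6, Wnt9a, Wnt10a, Wnt10b, Wnt11 and Wnt16. They were taken by gene name from tables of 40548 genes that hold 19 Wnt ligand genes in all, and every one of the 10 was found. The libraries were made from calvarial cells, the bone-forming cells of the skull vault, of C57BL/6 mice (C57BL/6J in the methods) at postnatal day 2 to 3 by the labels, within a wider neonatal range in the methods. Day 0 cells were grown to confluence and not differentiated, day 4 cells had spent 4 days in mineralization medium and day 7 cells 7 days, with 3 libraries per stage. All cells shared strain, tissue and age. None was cultured for 4 or 7 days without the medium, so differentiation and days in culture cannot be told apart. The labels also state that collagenase I was used to free mineralized but not non-mineralized cells before trypsin, so dissociation cannot be told apart from stage either. The study was about the metabolism of osteoblasts, and RNA-seq was used in it to profile gene expression across these stages.

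A Wnt ligand is acylated by Porcn in the endoplasmic reticulum, carried to the cell surface by Wls and bound there by Frizzled receptors. With the co-receptor Lrp5 or Lrp6 the complex stabilises beta-catenin, which enters the nucleus and acts with Tcf and Lef factors. Other ligands signal through Ror and Ryk receptors without beta-catenin and steer cell polarity and movement. In bone, Wnt signalling promotes the commitment of progenitors to osteoblasts, the bone matrix-forming cells, and loss of its inhibitor Sost raises bone mass.

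The pair of ligands with the largest opposite shift in abundance, Wnt10b and Wnt9a, is introduced by its upstream sequence, together with Wnt11, the ligand whose first start holds both a Tcf/Lef core and a TATA box core. Each line gives the 250 bases before an annotated transcription start in RefSeq (GRCm38.p6), 5′ to 3′ on the strand of the gene. Capitals mark the Tcf/Lef core and the TATA box core. The windows are chr15:98778151-98778400 on the reverse strand for Wnt10b, chr11:59306680-59306929 on the forward strand for Wnt9a and chr7:98834862-98835111 on the forward strand for Wnt11.
Wnt10b: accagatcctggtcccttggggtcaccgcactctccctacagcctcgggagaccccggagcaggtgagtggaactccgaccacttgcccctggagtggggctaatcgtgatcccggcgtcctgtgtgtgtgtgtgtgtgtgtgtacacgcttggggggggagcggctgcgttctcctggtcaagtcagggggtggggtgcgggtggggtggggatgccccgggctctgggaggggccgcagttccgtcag
Wnt9a: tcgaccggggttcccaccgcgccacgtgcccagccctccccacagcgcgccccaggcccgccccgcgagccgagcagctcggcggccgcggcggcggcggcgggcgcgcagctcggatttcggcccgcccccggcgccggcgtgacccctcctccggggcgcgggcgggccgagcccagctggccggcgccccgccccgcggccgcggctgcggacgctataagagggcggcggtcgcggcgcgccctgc
Wnt11: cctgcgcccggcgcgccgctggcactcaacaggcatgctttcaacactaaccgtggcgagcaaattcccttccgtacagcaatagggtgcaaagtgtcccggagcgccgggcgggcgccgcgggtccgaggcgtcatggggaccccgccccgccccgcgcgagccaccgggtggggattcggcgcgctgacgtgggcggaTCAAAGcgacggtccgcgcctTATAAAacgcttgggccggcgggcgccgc

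In the Wnt11 window the Tcf/Lef core, CTTTGA read on the opposite strand, began 50 bases before the start and the TATA box core TATAAA began 29 bases before it. Neither core, nor the RUNX core TGTGGT, occurred on either strand of the Wnt10b and Wnt9a windows. RefSeq windows were matched for 8 of the 10 ligands, with 11 windows in total. Of these 11, 2 held the Tcf/Lef core (Wnt11 and 1 start of Wnt5b), 1 held the TATA box core and 0 held the RUNX core. The shares over 32851 promoters of all genes were 13.8% for the Tcf/Lef core, 12.4% for the TATA box core and 14.0% for the RUNX core. The GC content of the ligand windows had a median of 70.8%, against 52.4% over all promoters, with 84.4% for Wnt9a and 66.8% for Wnt10b. A match of these letters is a description of the window and not a binding site.

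The genes lie on 8 chromosomes in the GRCm38 annotation (GENCODE M21), and Wnt6 (chr1:74771892-74785322) and Wnt10a (chr1:74791516-74804179) are neighbours on the forward strand of chromosome 1. Wnt10b spans chr15:98770712-98778150 on the reverse strand and Wnt9a chr11:59306928-59333552 on the forward strand. The exons of Wnt5a overlap those of the antisense gene Gm2670 over 358 bases, 4.58% of the Wnt5a exons, and Gm2670 was listed between 0.0298 and 0.267 RPKM. The exons of Wnt11 overlap the opposite-strand pseudogene Gm8398 over 364 bases, which was listed at 0 RPKM in every library. Stretches of 50 bases that also occur in exons of other genes made up 7.46% of Wnt11, 4.33% of Wnt4 and 3.38% of Wnt5a, and none was found for the other ligands. Whether reads were counted by strand is not given in the sources used here, so reads within the stretch that Wnt5a shares with its antisense gene cannot be assigned with certainty.

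Reads on genes numbered 7741204 to 14013219 per library at day 0, 32820610 to 37306090 at day 4 and 10675858 to 15622755 at day 7. The level of a gene is given as RPKM, reads scaled to the length of the gene model and to library depth, which permits comparison between genes. Changes from day 0 to day 7 were tested with limma on log2(CPM + 0.5), where CPM are reads scaled to library depth alone, with Benjamini-Hochberg adjustment over 12712 genes and a threshold of 0.05. This scale understates the change of low genes. Day 4 was deposited in tables of its own and entered no test. Of the 6 osteoblast markers, 5 were higher at day 7 (Runx2, the lineage-defining factor, did not pass: adjusted p = 0.268, limma), and all 4 osteocyte markers tested were higher, their list summing to 0.365 to 0.523 RPKM at day 0 and 71.2 to 141 at day 7. With so low a day 0 sum, the osteocyte calls rest largely on the day 7 level and are a description only. Marker lists of endothelial cells (0.117 to 0.459 RPKM) and keratinocytes (0.640 to 1.20 RPKM) stayed low in all 9 libraries, as did that of fat cells, with 3.30 RPKM as its highest sum. The pericyte list summed to 24.6 to 26.6 RPKM at day 0 and 85.5 to 115 at day 7, although of its 4 genes tested only Cspg4 was called higher, Rgs5 was lower, and Abcc9 and Notch3 did not pass. The osteoclast list summed to 101 to 134 RPKM at day 0 and 233 to 243 at day 7, with Acp5 and Ctsk called higher and Mmp9 lower. The 5 macrophage markers were all higher at day 7, with a summed level of 5.54 to 9.19 RPKM at day 0, 11.6 to 13.4 at day 4 and 12.3 to 15.1 at day 7. The 5 chondrocyte markers summed to 158 to 455 RPKM at day 0, 50.8 to 164 at day 4 and 43.9 to 124 at day 7, and the cartilage collagen gene Col2a1 was at 420 RPKM in day 0 replicate 1 against 140 and 158 in the others. The part of these cells in the changes of the ligands was not tested. In bulk RNA, fewer cells of a type and less RNA per cell cannot be told apart.

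Of the 10 ligands, 7 rose from day 0 to day 7 (Wnt10b, Wnt4, Wnt5b, Wnt2b, Wnt16, Wnt11 and Wnt5a), 1 fell (Wnt9a), 1 did not pass the threshold (Wnt6) and 1 was too low to be tested (Wnt10a). Over all genes tested, 12.6% were called higher and 18.6% lower, 31.2% in either direction. Of these calls 40.3% were higher, a share that was 51.8% under median-of-ratios scaling, and 8 ligands were called under both. Without day 0 replicate 1 the ligands called numbered 5, and without day 7 replicate 1 they numbered 4. The median log2 fold change of the 9 ligands tested was 0.79, beside -0.11 over all 12712 genes. Wnt2b and Wnt4 had mean levels under 1 CPM at day 0 and entered the test through their day 7 level, so the count and the median are a description only, and the p-values of these ligands carry the same limit. The mean RPKM was higher at day 7 in 8 ligands, the untested Wnt10a among them, against 37.8% of 12710 genes that passed the filter of the test. In the libraries, 7 ligands had all 3 day 7 RPKM values above all 3 day 0 values, against 16.9% of genes, and 1 had all of them below, against 25.4% of genes. The exact two-sided permutation test of 3 against 3 libraries cannot give a p below 0.1, and this value was reached by each of the 8 ligands called.

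**Figure D1:**
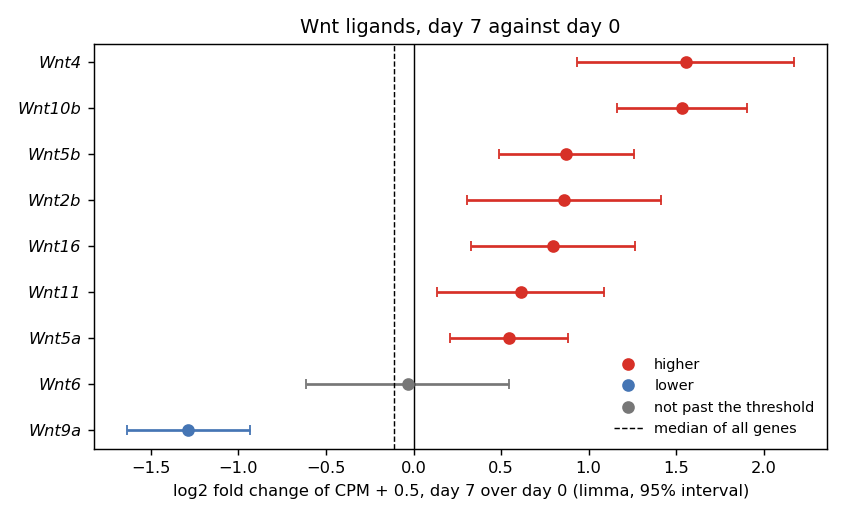
Log2 fold change of CPM + 0.5 from day 0 to day 7 (horizontal axis) for the 9 ligands tested, with 95% intervals from limma. The dashed line is the median of all genes tested, -0.11. The intervals of 7 ligands lie right of 0, that of Wnt6 spans it, and that of Wnt9a lies left of it, from -1.64 to -0.94.

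Wnt10b, which favours the osteoblast over the fat cell fate of mesenchymal progenitors, was the most abundant of the 10 ligands at day 4 and day 7. Its level was 8.74, 7.27 and 4.59 RPKM in the day 0 libraries, 12.0, 14.7 and 13.0 RPKM at day 4 and 20.3, 17.5 and 21.3 RPKM at day 7. The stages did not overlap, and each step led upward. The mean thus went from 6.87 ± 2.10 RPKM (SD, n = 3) to 13.2 ± 1.34 and 19.7 ± 2.00, 2.87 times the day 0 mean at day 7. The log2 fold change from day 0 to day 7 was 1.53 (SE 0.18, 95% interval 1.16 to 1.91, adjusted p = 2.47e-09, limma). The day 0 value rested on 286, 203 and 83 reads, and the lowest came from replicate 3, the library in which the gene Gm42418 took 12.0% of the reads, against 2.94% and 3.04% in the other day 0 libraries. Gm42418 also took 8.12% of the reads in day 7 replicate 2, which had the lowest day 7 value of Wnt10b, and Plekhh2 took 7.95% in day 7 replicate 3. The direction and the call stayed when any 1 of these libraries was left out.

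Wnt9a, a ligand known from the formation of synovial joints, moved the other way. It was listed at 9.10, 10.3 and 8.42 RPKM at day 0, at 5.52, 5.55 and 4.73 RPKM at day 4 and at 3.61, 3.71 and 3.80 RPKM at day 7. The stages did not overlap at either step, and the day 7 libraries were the closest to each other, with an SD of 0.0996 RPKM. The mean at day 0 was 9.29 ± 0.978 RPKM (SD, n = 3), 2.51 times that at day 7, and the log2 fold change was -1.29 (SE 0.17, 95% interval -1.64 to -0.94, adjusted p = 4.39e-08, limma). Wnt9a was the only one of the 10 ligands called lower. Of the 4 cartilage markers tested, 3 were lower at day 7 (Sox9, Col2a1 and Col9a1) and Acan was higher, and their part in the Wnt9a change was not tested.

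The ratio of Wnt10b to Wnt9a within a library, which does not depend on how libraries are scaled against each other, set the stages far apart. It was 0.960, 0.703 and 0.546 at day 0, so Wnt9a was the more abundant in each of these libraries. At day 4 it was 2.17, 2.64 and 2.74, and at day 7 it was 5.63, 4.71 and 5.61. The order of both ligands was therefore turned in all 6 differentiated libraries, and the 3 stages did not overlap (exact two-sided permutation p = 0.1 for day 7 against day 0, the smallest possible with n = 3 per stage). The pair was chosen for its opposite shift, and each ligand alone had moved without overlap at both steps. Separation of the ratio and its p follow from that choice and are a description only. The mean ratio was 0.736 ± 0.209, 2.52 ± 0.302 and 5.32 ± 0.524 (SD, n = 3).

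**Figure D2:**
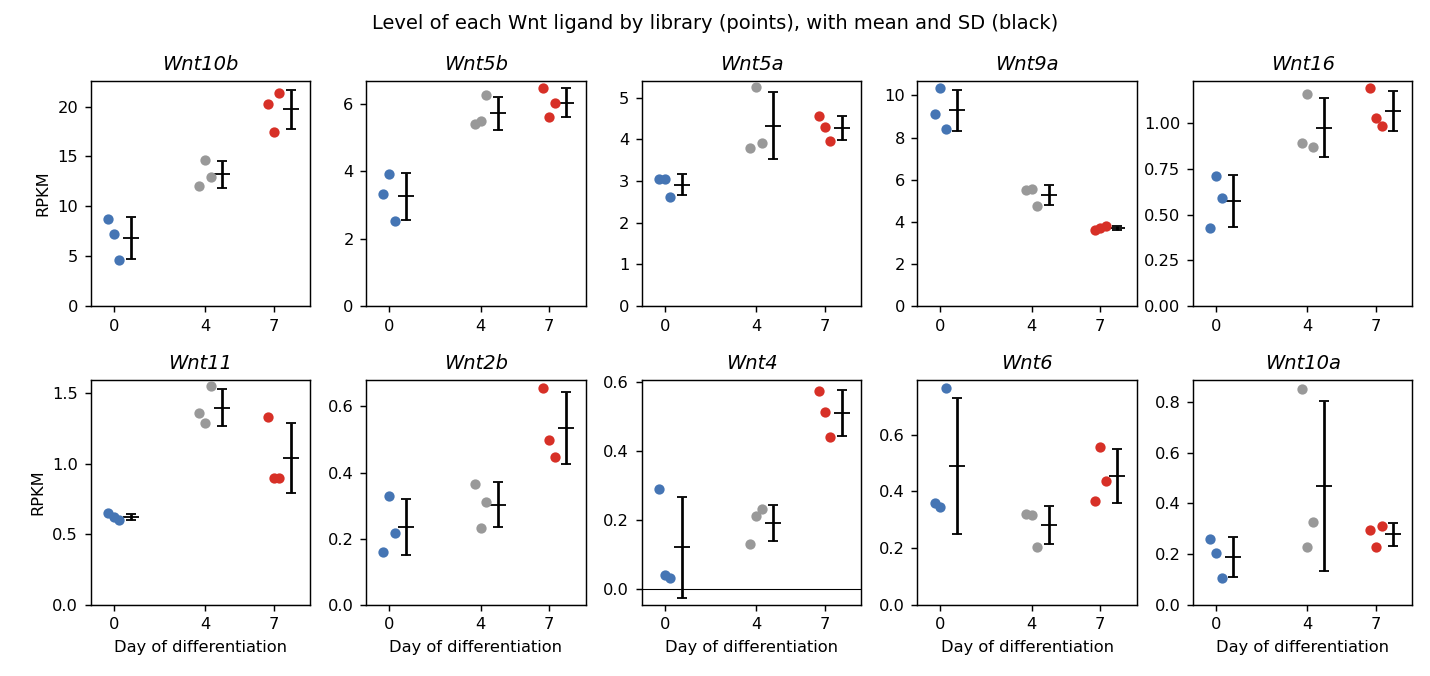
Level of each ligand in RPKM (vertical axes, which differ between panels) against day of differentiation. Points are the 3 libraries of a stage, and black marks give the mean and SD. Wnt10b climbs over both steps and Wnt9a declines over both, while the 3 Wnt11 libraries of day 4 lie at 1.29 to 1.55 RPKM, above the day 0 libraries and with a higher mean than day 7.

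Wnt5a, Wnt5b and Wnt11 are the ligands of the set best known for signalling without beta-catenin. Wnt5a, which acts through the receptor Ror2, was at 3.06, 3.05 and 2.62 RPKM at day 0, 3.81, 5.27 and 3.92 at day 4 and 4.56, 4.30 and 3.97 at day 7. All differentiated libraries lay above day 0, and days 4 and 7 overlapped. Its log2 fold change from day 0 to day 7 was 0.55 (SE 0.17, 95% interval 0.21 to 0.88, adjusted p = 0.00941, limma), and without day 7 replicate 1 the adjusted p was 0.0695.

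Wnt5b, the close homologue of Wnt5a, was at 3.33, 3.91 and 2.53 RPKM at day 0, 5.39, 5.49 and 6.27 at day 4 and 6.48, 5.61 and 6.03 at day 7. It showed the same arrangement as Wnt5a, with day 0 below all other libraries and days 4 and 7 overlapping. The mean moved from 3.26 ± 0.691 to 5.72 ± 0.480 and 6.04 ± 0.436 RPKM (SD, n = 3), and the log2 fold change at day 7 was 0.87 (SE 0.19, 95% interval 0.49 to 1.26, adjusted p = 0.00033, limma). The ratio of Wnt5b to Wnt5a was 1.09, 1.28 and 0.964 at day 0, 1.42, 1.04 and 1.60 at day 4 and 1.42, 1.31 and 1.52 at day 7. It did not overlap between day 0 and day 7 (exact permutation p = 0.1, n = 3 per stage), whereas day 4 spanned both.

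Wnt11, known from cell movements in gastrulation and from kidney branching, stood at 0.648, 0.621 and 0.604 RPKM at day 0, 1.36, 1.29 and 1.55 at day 4 and 1.33, 0.902 and 0.898 at day 7. The day 4 mean was the highest of the 3 stages, and day 7 replicate 1 lay within the day 4 range. Day 7 was above day 0 in every library. The log2 fold change at day 7 was 0.61 (SE 0.24, 95% interval 0.13 to 1.09, adjusted p = 0.0434, limma). The reads behind it were few, 33, 27 and 17 at day 0 against 66, 35 and 51 at day 7, and the call was lost without day 0 replicate 1, day 0 replicate 2 or any 1 of the day 7 libraries, with adjusted p between 0.0555 and 0.261.

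Wnt16, an osteoblast-derived ligand that preserves cortical bone, was at 0.425, 0.709 and 0.592 RPKM at day 0, 0.894, 1.16 and 0.871 at day 4 and 1.19, 1.03 and 0.983 at day 7. Both differentiated stages lay above day 0 and overlapped each other. Its log2 fold change was 0.79 (SE 0.23, 95% interval 0.33 to 1.26, adjusted p = 0.0068, limma). Leaving out replicate 1 of day 0 gave an adjusted p of 0.0632, and leaving out that of day 7 gave 0.0582.

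Wnt4 and Wnt2b were rare at day 0. Wnt4, a ligand needed for kidney tubules and the female reproductive tract, had 17, 2 and 1 reads at day 0, 18, 33 and 35 at day 4 and 33, 23 and 29 at day 7. These correspond to 0.289, 0.0399 and 0.0308 RPKM, to 0.131, 0.211 and 0.231 RPKM and to 0.576, 0.513 and 0.442 RPKM. Day 7 lay above all other libraries, whereas day 0 replicate 1 exceeded all 3 day 4 libraries. The log2 fold change at day 7 was 1.55 (SE 0.31, 95% interval 0.94 to 2.17, adjusted p = 7.17e-05, limma) and 2.02 without day 0 replicate 1, the library that also had the most Col2a1. Wnt4 had passed the filter only through its day 7 level, and with all genes that have any reads admitted its adjusted p was 0.00081 (limma). Whether the Wnt4 reads of day 0 replicate 1 went with its higher Col2a1 was not tested.

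Wnt2b, which is known from lung and eye development, was at 0.160, 0.328 and 0.217 RPKM at day 0, 0.366, 0.232 and 0.310 at day 4 and 0.655, 0.498 and 0.448 at day 7. Day 7 was above the rest and days 0 and 4 overlapped. With 8, 14 and 6 reads at day 0 and 32, 19 and 25 at day 7, the log2 fold change was 0.86 (SE 0.27, 95% interval 0.31 to 1.41, adjusted p = 0.0132, limma). Wnt2b too had passed the filter only through day 7, and with all genes that have any reads admitted its adjusted p was 0.0354 (limma). It missed the threshold when replicate 1 of day 0 (adjusted p = 0.0754) or of day 7 (adjusted p = 0.0979) was left out.

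No change passed a test for Wnt6 and Wnt10a, the neighbours on chromosome 1. Wnt6, a ligand of embryonic epithelia, was at 0.358, 0.343 and 0.766 RPKM at day 0, 0.319, 0.318 and 0.202 at day 4 and 0.367, 0.555 and 0.438 at day 7. Day 0 replicate 3 was the highest library, all day 4 libraries lay below all others, and days 0 and 7 overlapped. The log2 fold change at day 7 was -0.03 (SE 0.29, 95% interval -0.61 to 0.55, adjusted p = 0.947, limma), and its sign turned under other scalings. Wnt10a, which is needed for teeth and skin appendages, was at 0.260, 0.203 and 0.105 RPKM at day 0, 0.851, 0.228 and 0.326 at day 4 and 0.297, 0.228 and 0.311 at day 7. The highest value came from day 4 replicate 1 alone, with 69 reads against 21 and 29, and the stages overlapped. The exact permutation p of Wnt10a for day 7 against day 0 was 0.2 (n = 3 per stage).

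The direction at day 4, for which no test was made, was read from the libraries. Day 4 was deposited apart from the other stages and at a higher depth. Separate handling of day 4, if any, cannot be told apart from stage at either step. The mean of 8 ligands was higher at day 4 than at day 0, and that of Wnt6 and Wnt9a was lower. A higher mean was found in 43.3% of the 12710 genes that passed the filter on days 0 and 7. Wnt10a, among the 8, did not pass that filter. Day 4 exceeded day 0 without overlap in 5 ligands (Wnt5a, Wnt5b, Wnt10b, Wnt11 and Wnt16), as in 21.1% of these genes, and lay below it without overlap in 2 (Wnt6 and Wnt9a), as in 22.2%. From day 4 to day 7 the mean went up in 6 ligands, against 40.5% of genes. In this step the libraries of 4 ligands (Wnt2b, Wnt4, Wnt6 and Wnt10b) moved up without overlap, against 13.8% of genes, and those of Wnt9a moved down, against 24.6%. The means of 5 ligands, Wnt2b, Wnt4, Wnt5b, Wnt10b and Wnt16, went up at both steps, as did 14.5% of the 12710 genes. Wnt5a, Wnt10a and Wnt11 had their highest mean at day 4, but days 4 and 7 overlapped for each of them. The share of genes with a highest mean at day 4 was not taken, so this is a description only.

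The order of the ligands changed with stage. At day 0 Wnt9a came first with a mean of 9.29 RPKM, its range overlapping that of Wnt10b at 6.87 RPKM. Wnt5b and Wnt5a followed at 3.26 and 2.91 RPKM and did not differ beyond their spread. A gap then led to Wnt11, Wnt16 and Wnt6 (0.624, 0.576 and 0.489 RPKM), whose neighbours overlapped, and to Wnt2b, Wnt10a and Wnt4 (0.235, 0.189 and 0.120 RPKM), which overlapped as well. At day 4 Wnt10b stood clear of all others, while Wnt5b, Wnt9a and Wnt5a (5.72, 5.27 and 4.33 RPKM) overlapped in turn. At day 7 the first 4 places were separate in every library, with Wnt10b at 19.7 RPKM, Wnt5b at 6.04, Wnt5a at 4.28 and Wnt9a at 3.71, and Wnt9a had gone from the first place to the fourth. Wnt10a was last at day 7 with 0.278 ± 0.0446 RPKM (SD, n = 3), below every library of the other ligands.

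The summed level of the 10 ligands was 26.4, 26.8 and 20.5 RPKM at day 0, 30.7, 34.4 and 31.4 RPKM at day 4 and 39.3, 34.8 and 38.7 RPKM at day 7. Each stage lay above the one before it without overlap (exact permutation p = 0.1 for day 7 against day 0, n = 3 per stage). From day 0 to day 7 the mean sum went from 24.6 to 37.6 RPKM, and Wnt10b alone from 6.87 to 19.7 RPKM. The rise of the sum thus lay mostly in Wnt10b and does not describe the other ligands as a set. Wnt10b, Wnt9a, Wnt5b and Wnt5a together made up 90.7% of this sum at day 0, 88.7% at day 4 and 89.7% at day 7. In the sum of all 10 ligands the share of Wnt10b was 27.6% ± 5.37, 41.0% ± 1.72 and 52.3% ± 2.58 (SD, n = 3), and that of Wnt9a was 38.1% ± 3.32, 16.4% ± 1.49 and 9.89% ± 0.748. The share of Wnt5a stayed between 11.4% and 13.4% on average, and that of Wnt5b was 13.2%, 17.8% and 16.1%. Shares of 1 ligand depend on the others, since they sum to 100%.

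**Figure D3:**
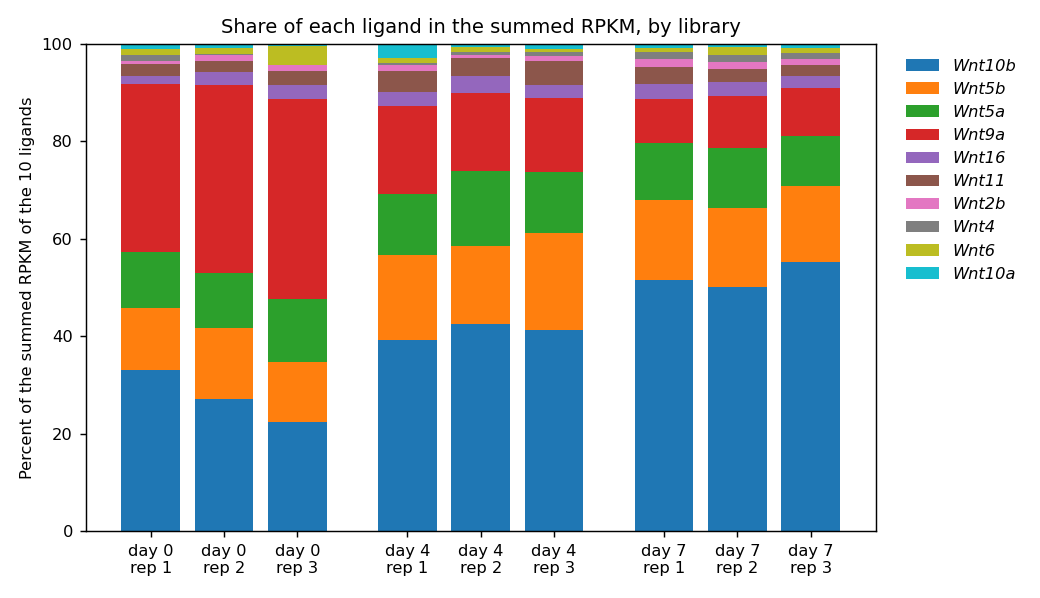
Share of each ligand in the summed RPKM of the 10 ligands (vertical axis, percent), 1 bar per library. The Wnt10b segment grows from 27.6% on average at day 0 to 52.3% at day 7, and the Wnt9a segment shrinks from 38.1% to 9.89%.

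Among the other 9 Wnt ligand genes, 7 (Wnt1, Wnt3, Wnt3a, Wnt7a, Wnt8a, Wnt8b and Wnt9b) had at most 3 reads in every library. The remaining 2 moved in opposite directions. Wnt7b, an inducer of bone formation, was at 0.307, 0.227 and 0.176 RPKM at day 0, 5.60, 2.62 and 4.58 at day 4 and 3.86, 2.59 and 4.10 at day 7, a log2 fold change of 3.37 at day 7 (SE 0.23, adjusted p = 3.84e-17, limma). Its differentiated libraries were all above day 0. Wnt2, the homologue of Wnt2b, was at 1.80, 2.00 and 1.43 RPKM at day 0, 0.621, 0.820 and 0.726 at day 4 and 0.292, 0.581 and 0.652 at day 7, a log2 fold change of -1.46 (SE 0.26, adjusted p = 1.12e-05, limma). Wnt2 and Wnt2b thus changed in opposite directions between day 0 and day 7.

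RNA levels of Porcn, Wls and Notum, whose products act on every ligand, were called different at day 7. Porcn, which acylates Wnt ligands, was at 5.28, 4.88 and 4.69 RPKM at day 0, 14.7, 22.2 and 18.5 at day 4 and 12.0, 9.55 and 10.3 at day 7. It was highest at day 4 without overlap, and its log2 fold change at day 7 was 1.07 (SE 0.17, adjusted p = 1.92e-06, limma). Wls, the carrier for their secretion, was at 184, 189 and 142 RPKM at day 0, 111, 84.8 and 98.9 at day 4 and 100.1, 91.6 and 97.2 at day 7, below day 0 in every later library (log2 fold change -0.82, SE 0.16, adjusted p = 4.93e-05, limma). Notum, an extracellular enzyme that removes the lipid and so inactivates the ligand, was at 0.592, 0.278 and 0.322 RPKM at day 0, 1.06, 0.790 and 1.24 at day 4 and 3.56, 3.11 and 2.07 at day 7. Its stages did not overlap at either step, but its day 0 mean was under 1 CPM and it entered the test through day 7. Of the 8 genes for maturation, release and inactivation, 2 rose, 2 fell (Wls and the ligand-cleaving protease Trabd2b) and 4 did not pass. Among all genes tested, 12.6% were called higher and 18.6% lower. The call of Trabd2b was lost without day 7 replicate 2.

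Over the other pathway lists together, 14 of 67 genes tested were called higher and 25 lower, beside 12.6% and 18.6% of all genes. Under median-of-ratios scaling the counts were 19 and 28 of 67, beside 2827 and 2629 of all 12712 genes under the same scaling. Of the pathway genes Notum, Sfrp4, Dkk1, Sost and Rnf43 had day 0 means under 1 CPM, so their calls are a description. Receptors and co-receptors were mostly lower or did not pass. Of 18 tested, 1 rose and 10 fell, with a median log2 fold change of -0.51, and 7 did not pass, Ror2 (adjusted p = 0.431, limma) and Lrp5 (adjusted p = 0.0721, limma) among them. The single rise was Fzd5 (log2 fold change 0.60, adjusted p = 0.00214, limma), and the deepest fall was Fzd10 (-1.54, adjusted p = 2.41e-06, limma), both of them Frizzled receptors. The Fzd5 means were 20.3 ± 1.37, 16.1 ± 0.851 and 30.9 ± 4.62 RPKM across the stages (SD, n = 3), so it was lowest at day 4. The call of Fzd5 was lost without day 7 replicate 1. Of the 14 intracellular transducers, 0 rose and 4 fell, the strongest being Tcf7l1, a repressor of Wnt targets (-1.01, adjusted p = 0.000214, limma), and 10 did not pass the threshold.

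Secreted antagonists, which bind the ligands or block their receptors, moved in both directions. Of 10 tested, 5 rose (Dkk1, Frzb, Sfrp4, Wif1 and Sost), 3 fell (Sfrp1, Sfrp2 and Sostdc1) and 2 did not pass. All genes tested gave 12.6% higher and 18.6% lower. Dkk1, which blocks Lrp5 and Lrp6, had 3, 0 and 2 reads at day 0, 205, 331 and 243 at day 4 and 946, 754 and 806 at day 7, or 28.5, 29.1 and 21.2 RPKM at day 7. The day 0 libraries lie at or under 3 reads, so no fold is given. Sostdc1, a relative of Sost, had means of 4.96 ± 0.697, 9.98 ± 2.95 and 2.03 ± 0.787 RPKM across the stages (SD, n = 3), and its log2 fold change at day 7 was -1.23 (adjusted p = 2.38e-05, limma).

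R-spondins are secreted proteins that amplify Wnt signalling by clearing Rnf43 and Znrf3, the ligases that remove Frizzled receptors. Of the 8 genes of this group tested, 2 rose and 4 fell, beside 12.6% and 18.6% of all genes. Rnf43 was near its floor at day 0 with 5, 4 and 1 reads and reached 110, 75 and 128 reads at day 7, through which alone it passed the filter. Rspo3 was at 14.3, 21.8 and 15.1 RPKM at day 0 and 3.00, 1.80 and 2.54 at day 7, a log2 fold change of -2.70 (SE 0.19, adjusted p = 2.75e-16, limma). Among 7 tested genes known as beta-catenin targets, 3 rose (Tcf7, Nkd2 and Bambi) and 1 fell (Nkd1), beside the same shares of all genes, and 3 did not pass. Tcf7, a transcription factor of the pathway, rose by a log2 fold change of 3.68 (SE 0.22, adjusted p = 5.79e-19, limma), and the pathway inhibitor Nkd1 changed by -0.82 (SE 0.18, adjusted p = 0.000207, limma). The widely used target Axin2 had means of 1.62 ± 0.223, 2.44 ± 0.570 and 2.10 ± 0.182 RPKM across the stages (SD, n = 3; adjusted p = 0.151 for day 7, limma).

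**Figure D4:**
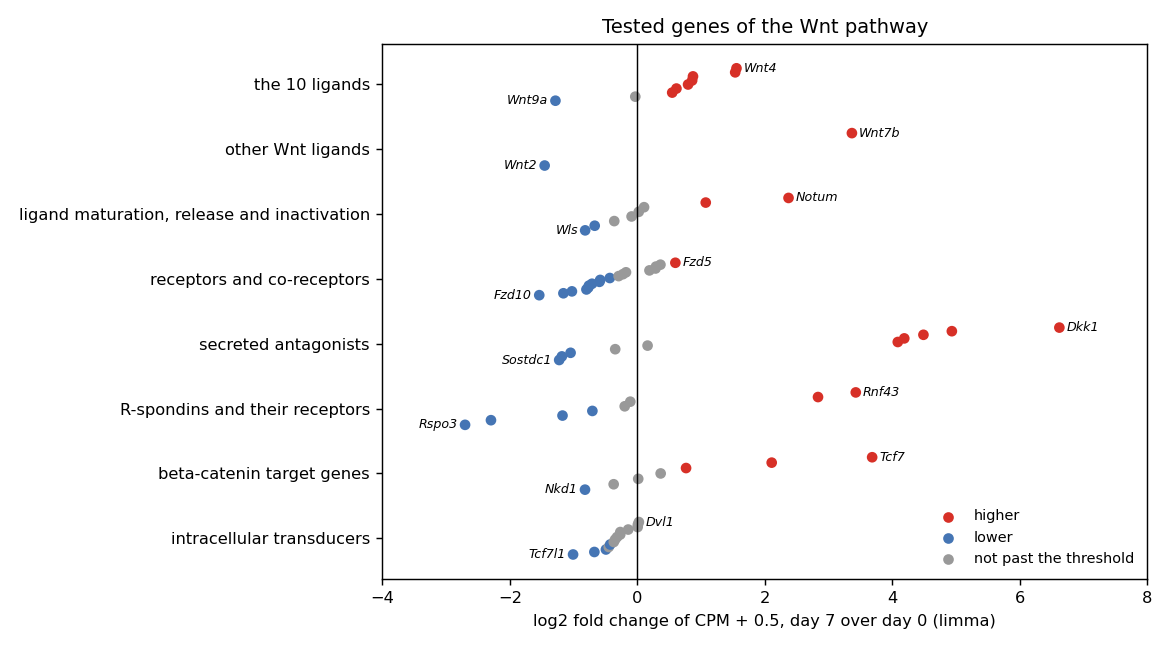
Log2 fold change of CPM + 0.5 from day 0 to day 7 (horizontal axis) for the tested genes of the pathway, 1 row of points per group, coloured by the limma call. The extreme genes of each row are named. Most receptors and transducers lie left of 0, and the antagonists spread from Sostdc1 at -1.23 to Dkk1, whose day 0 level rests on 3, 0 and 2 reads.

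The genes whose profile was most like that of a ligand were sought over all 9 libraries among 12782 genes, for the 3 ligands with the largest change. Pearson's r of log2(CPM + 0.5) was 0.998 between Wnt10b and Tmem256, 0.990 for Nrbp2 and 0.989 for Metrnl, which encodes a secreted hormone-like protein. For Wnt9a the closest were Jakmip2 (0.994), Nfib, a transcription factor (0.991), and Slc9a9, a sodium-proton exchanger (0.990). Wnt4 was followed most closely by Cpe, a peptide-processing carboxypeptidase (0.971), Pet100 (0.957) and Pigx (0.954). Metrnl had means of 25.5, 51.4 and 82.0 RPKM at days 0, 4 and 7, and Nfib had 5.74, 3.43 and 2.51 RPKM. Jakmip2 had 0.735, 0.123 and 0.00607 RPKM, so its day 7 level lay near the floor. The points of such a correlation share the 3 stages and the library depths, so these values describe likeness of profile only.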

How the data were processed

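RNA-seq was performed on mouse calvarial cells at day 0, 4 and 7 of differentiation, 3 libraries per stage. Per the labels and methods, the authors depleted ribosomal RNA, aligned reads with STAR 2.0.4b to GRCm38 and counted them with featureCounts (1.45 in the submitters' notes). The authors deposited CPM, and RPKM that also divide by gene length, in separate tables for days 0 and 7 and for day 4. The deposited CPM were whole multiples of 1 read (tolerance 0.01 reads) in 100% of values, so reads were recovered. Identical repeated lines were collapsed and tables joined by Ensembl ID.

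Day 7 was compared with day 0 by limma 3.58.1 (R 4.3.3; trend) on log2(CPM + 0.5), where the mean over 6 libraries reached 1 CPM. With 42.9 prior and 4 residual degrees of freedom, the spread shared by genes of like level dominates the p-values. The methods call the replicates biological, but the labels do not say whether they were separate cultures or animals, so p-values measure the spread between these libraries. Replicates correlated at Spearman's rho 0.963 to 0.976. Intervals come from limma and cover the spread between these libraries only. Alternatives used edgeR 4.0.16 and DESeq2 1.42.0 on recovered reads, other scalings, filters and pseudocounts, and left out each library.

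The ligands and the lists were chosen with earlier results of these data known. All 10 ligands are named. In each other list, the gene with the largest rise and that with the largest fall past the threshold are named, with Wls, Porcn and Notum. The most alike genes are the 3 highest correlations for the 3 ligands with the largest change. Members listed for a count were named after their calls were seen, as were Ror2, Lrp5, Axin2 and the means of Metrnl, Nfib and Jakmip2. Promoter sequences are from RefSeq.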

Additional observations from a re-analysis of the deposited data

How the results depend on the processing

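Wnt10b, Wnt5b, Wnt9a and, with the limit of its low day 0 level, Wnt4 passed the threshold with an unchanged direction in each alternative that tested them, with log2 fold changes from day 0 to day 7 of 1.28 to 1.73 (Wnt10b), 0.71 to 1.01 (Wnt5b), -1.35 to -1.18 (Wnt9a) and 0.73 to 2.96 (Wnt4). Wnt11 lost its call in 8 alternatives, Wnt16 and Wnt2b in 2 each and Wnt5a in 1. Wnt6, at -0.03, never passed and changed sign to 0.026 under median-of-ratios scaling, 0.098 in edgeR, 0.022 in DESeq2, 0.34 with voomWithQualityWeights and 0.060 without day 7 replicate 1; it was as low as -0.17 without day 0 replicate 2. Of the 10 ligands, 8 were called; leaving out 1 library gave 4 (without day 7 replicate 1) to 8, with 5 without day 0 replicate 1, and a minimum mean of 5 CPM left 4 tested and 4 called. Admitting genes with any reads gave Wnt10a a log2 fold change of 0.31 (adjusted p = 0.431, limma). Over all genes 3971 were called, 6120 with voomWithQualityWeights and 2882 to 6330 when 1 library was left out, the highest without day 0 replicate 3. Of these calls 40.3% were higher at day 7, but 51.8% under median-of-ratios scaling, 51.5% in edgeR, 52.6% in DESeq2, 51.4% with voomWithQualityWeights and 25.8% without day 0 replicate 3, the library with the most Gm42418. The median over all genes moved from -0.11 to -0.01 under median-of-ratios scaling, with 8 ligands still called. The other Wnt pathway genes gave 39 calls, and 33 to 48 when 1 library was left out.

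Same-numbered day 0 and day 7 libraries correlated at -0.02, -0.18 and -0.44 in their deviations from the stage means. Pairs of different number ranged from -0.27 to 0.36. These values gave no sign that the numbers pair samples, but with 3 libraries per stage they cannot exclude it. With the number as a replicate block 7 ligands, 36 pathway genes and 3413 genes were called, and Wnt11, with an adjusted p of 0.066 (limma), was the only ligand to lose its call.

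With CPM in place of RPKM, which leaves gene length in, the Wnt10b share was 18.4%, 27.9% and 37.7% at days 0, 4 and 7, and the Wnt5a share 26.6%, 30.5% and 27.4%, above Wnt10b at days 0 and 4. With all 19 Wnt genes in the sum, chosen after seeing the data, Wnt10b took 35.5% at day 4 and 47.2% at day 7, and Wnt9a 14.2% and 8.93%. The means of 8 ligands were higher at day 4 than at day 0 in each alternative run, and those of 6 were higher at day 7 than at day 4, 7 under median-of-ratios scaling and without day 4 replicate 1, day 4 replicate 2 or day 7 replicate 3. The causes were not tested. Ligands near 1 CPM rest on few reads at day 0, which limits Wnt2b, Wnt4, Wnt6 and Wnt10a.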
